A study of Mus musculus with 2 samples.

Results

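The collagen genes are the 41 genes whose symbol consists of Col, a number, the letter a and a number, out of the 19430 genes listed in either of the 2 deposited tables. The table of the wild-type library lists all 41 of them among 17809 genes, and the table of the reporter library lists 33 among 15972, so 8 members have values in the wild-type library only. They code for the chains of 24 collagen types.

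Single-cell RNA of the mouse colon was measured in 2 droplet libraries, 1 for each group. The wild-type library came from C57BL/6 mice without a transgene, and mixed cells sorted as positive for the epithelial surface protein EpCAM with cells sorted as negative for EpCAM and for the leukocyte protein CD45. The reporter library came from Pdgfra-H2B-eGFP mice, in which a nuclear green fluorescent protein is made from the Pdgfra locus, and held mesenchymal cells sorted for green fluorescence without staining for CD45 or EpCAM. Each library pooled cells of 3 female mice of 8 to 12 weeks, the labels name no treatment, and no file assigns a cell to a mouse. The wild-type library was made with version 3 and the reporter library with version 2 of the 10x Genomics 3′ kit. Strain, sort and kit thus differ together between the libraries and their parts cannot be told apart, so the libraries are set side by side and levels are compared only within a library. With 1 library a group there is no replicate, no test between mice and no p-value, and cells were not treated as replicates.

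Collagens are extracellular proteins made of chains that wind around each other in a triple helix. Fibril-forming collagens give tissue its tensile strength, fibril-associated and beaded-filament collagens decorate and link those fibrils, and the network collagens of type IV build the basement membranes on which epithelium, endothelium, muscle and glia rest. In the intestine fibroblasts are the main source of interstitial collagen, while the cells of vessels, muscle and nerves add basement membrane of their own.

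Every value below is a corrected count, the whole number that SCTransform gives for what a cell would have yielded at a common depth, and a level is its average over the cells in a class, given per cell. The wild-type library holds 7495 cells with 6120 to 16389 corrected counts per cell (median 8972) and a median of 2804 genes per cell. The reporter library holds 4409 cells with 2314 to 4432 corrected counts (median 3150) and a median of 1381 genes. The libraries share 1 cell barcode. Because a 3′ kit counts the end of a transcript, and lengths and tag positions differ between genes, a level is compared across classes for a gene and not between genes. The cells of each library were clustered without any collagen gene, and clusters were named from lists of other marker genes with the ending "-like", since the files hold no cell annotation.

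In the wild-type library 2457 fibroblasts fell into the 3 types the study describes, 1132 CBFs1-like and 504 CBFs2-like cells (crypt bottom fibroblasts) and 821 CTFs-like cells (crypt top fibroblasts). The other classes were 948 smooth muscle-like, 118 pericyte-like, 594 blood endothelial-like, 45 lymphatic endothelial-like, 78 glia-like and 2480 epithelial cells. A cluster of 129 fibroblasts got no type, 585 cells in 2 clusters stayed unnamed, and 41 cells were immune-like in spite of the sort against CD45. The named classes below leave out a cluster of 20 interstitial cell of Cajal-like cells, under the limit of 40 cells for a described class. The smaller of the unnamed clusters, 99 cells with a median of 3851 genes, was led by Notch3 and Ndufa4l2. Rgs5, a pericyte marker in the study, Vtn and Higd1b were also among its leading genes. Notch3, Ndufa4l2, Vtn and Higd1b lead the pericyte-like cluster too, but these 99 cells are not part of that class. The reporter library gave 2099 CBFs1-like, 850 CBFs2-like and 518 CTFs-like cells, 776 fibroblasts without a type, 114 immune-like cells and 52 epithelial cells. Of its CBFs1-like cells, 1118 form a cluster led by the stress and inflammatory response genes Sbno2, Tnfaip3, Cxcl2 and Ptgs2. Median genes per cell of the wild-type library were 2432 for CTFs-like, 2801 for CBFs2-like, 2684.5 for CBFs1-like, 2323 for glia-like, 2050 for blood endothelial-like, 2102 for pericyte-like, 2620.5 for smooth muscle-like and 3221.5 for epithelial cells.

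Collagen transcripts made up 1.72% of all corrected counts of the wild-type fibroblasts (exact Clopper-Pearson 95% interval 1.72% to 1.73%), or 150 per cell. This interval and those below take each corrected count, or each cell for a share of cells, as an independent draw. They hold no spread between mice. By type the share was 1.66%, 1.88% and 1.71% in CBFs1-like, CBFs2-like and CTFs-like cells, so the fibroblast types, each taken whole, differed little in total. It was 0.831% in smooth muscle-like, 0.756% in glia-like and 0.694% in pericyte-like cells. Endothelium had less, with 0.287% in blood endothelial-like and 0.223% in lymphatic endothelial-like cells. Epithelial cells had 0.0225% (0.0219% to 0.0231%), the lowest share of these wild-type classes, and 0.0140% without the cells of highest doublet score, an alternative chosen after seeing the data. The order of the types was another in the reporter library, with 1.29%, 1.49% and 0.999% in CBFs1-like, CBFs2-like and CTFs-like cells. The CTFs-like classes of the libraries differ in make-up. At the finer clustering described below, a wild-type CTFs-like cluster of 216 cells marked by Il1rl1 had 2.52% and the other had 1.41%. In the reporter library 121 of the 123 cells of such a cluster were fibroblasts without a type. The part of this in the order was not tested. Within the reporter library the 114 immune-like cells had 0.439% and the 52 epithelial cells 0.430%, although the median number of members above 0 was 0 in these epithelial cells, so a part of them holds the counts.

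The make-up of that share changed from class to class more than the share did among fibroblasts. Fibril-forming genes gave 70.6% of the collagen counts of CBFs1-like, 71.2% of CBFs2-like and 64.4% of CTFs-like cells, but 25.3% in blood endothelial-like cells. The basement membrane genes of type IV gave 4.21% in CBFs2-like and 49.4% in blood endothelial-like cells, with pericyte-like cells between them at 32.5%. Beaded-filament genes gave 21.1% in CTFs-like against 12.1% in CBFs1-like cells. The multiplexins, collagens of basement membrane zones, gave 1.09% in CTFs-like cells, 15.6% in glia-like cells and 22.2% in lymphatic endothelial-like cells. Glia-like cells also had the highest share of fibril-associated genes of these classes, 13.5%. The fibril-forming share of the reporter library was 76.4%, 76.0% and 71.0% in CBFs1-like, CBFs2-like and CTFs-like cells, and the beaded-filament share was again higher in CTFs-like cells, 17.7% against 9.93% in CBFs1-like cells.

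**Figure D1:**
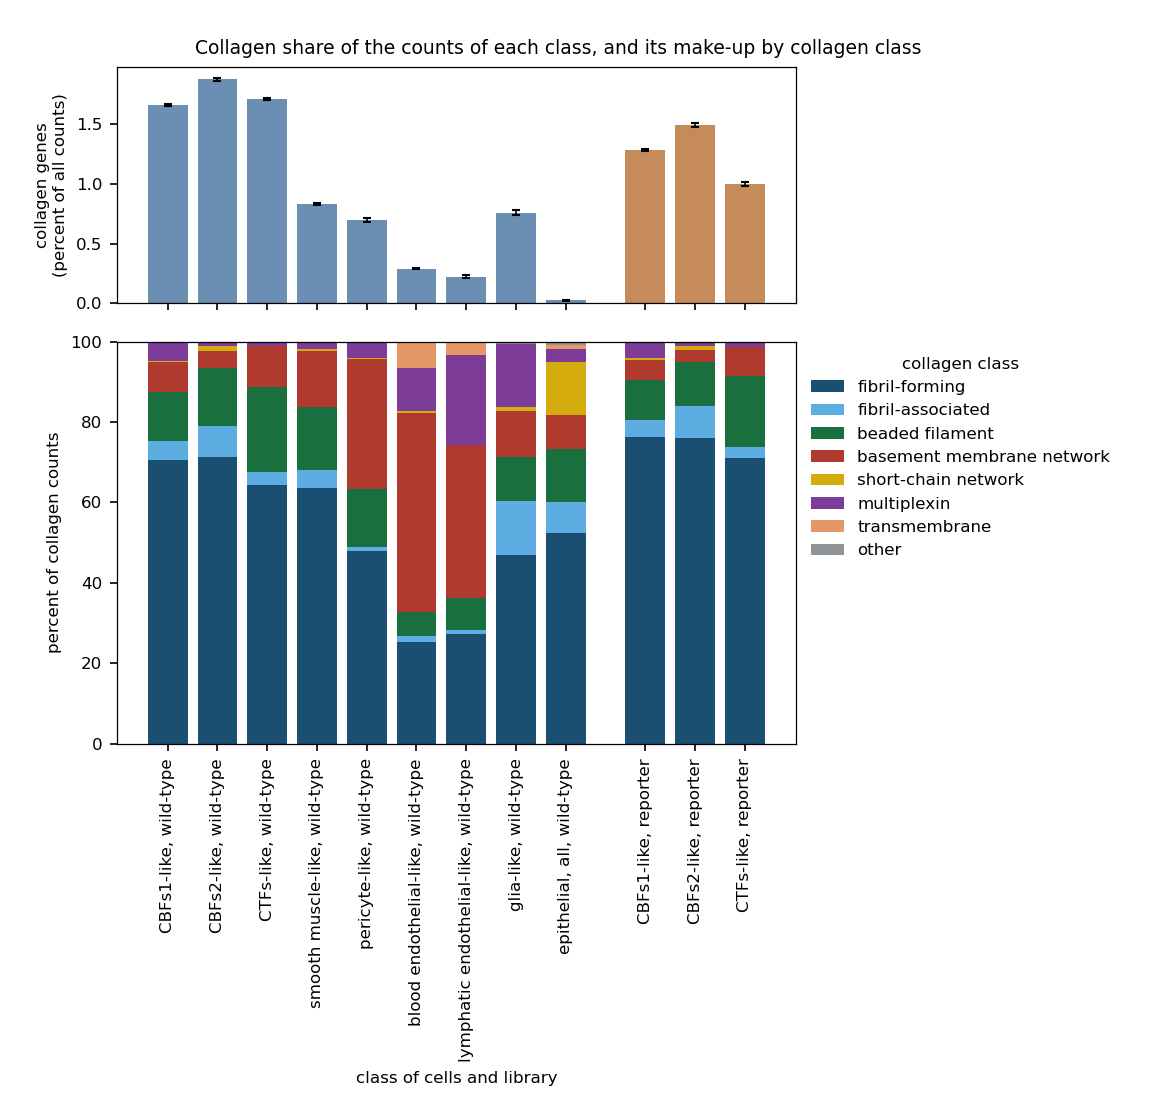
Upper bars give the collagen genes as a percent of all corrected counts for each class of cells, and lower bars split those collagen counts by collagen class, in percent. Error bars are 95% intervals that take each corrected count as an independent draw. Shares run from 0.0225% in epithelial cells to 1.88% in CBFs2-like cells of the wild-type library, and the red part, basement membrane collagen, grows from 4.21% in CBFs2-like to 49.4% in blood endothelial-like cells.

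Of the 41 members, 31 reached a mean of 0.1 per cell in a named class of the wild-type library with 40 or more cells. These are described below, and 10 did not reach it. Of the 33 in the reporter library 20 reached it, all of them among the 31. The class with the highest mean of the 31 was glia-like for 10, CTFs-like for 7, CBFs2-like for 6, CBFs1-like for 4, pericyte-like for 2, and blood and lymphatic endothelial-like for 1 each. Highest classes here and below are among the named classes of 40 or more cells, without the 585 unnamed and the 20 interstitial cell of Cajal-like cells. The median number of members above 0 in a cell was 15 in CBFs1-like, CTFs-like and glia-like cells, 10 in pericyte-like, 12 in smooth muscle-like, 7 in blood endothelial-like and 0 in epithelial cells. Glia-like cells, at a collagen share below that of fibroblasts, thus held as many members per cell as fibroblasts did. After thinning every cell to 1000 corrected counts the medians were 7 in each fibroblast type, 6 in glia-like and 2 in blood endothelial-like cells.

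**Figure D2:**
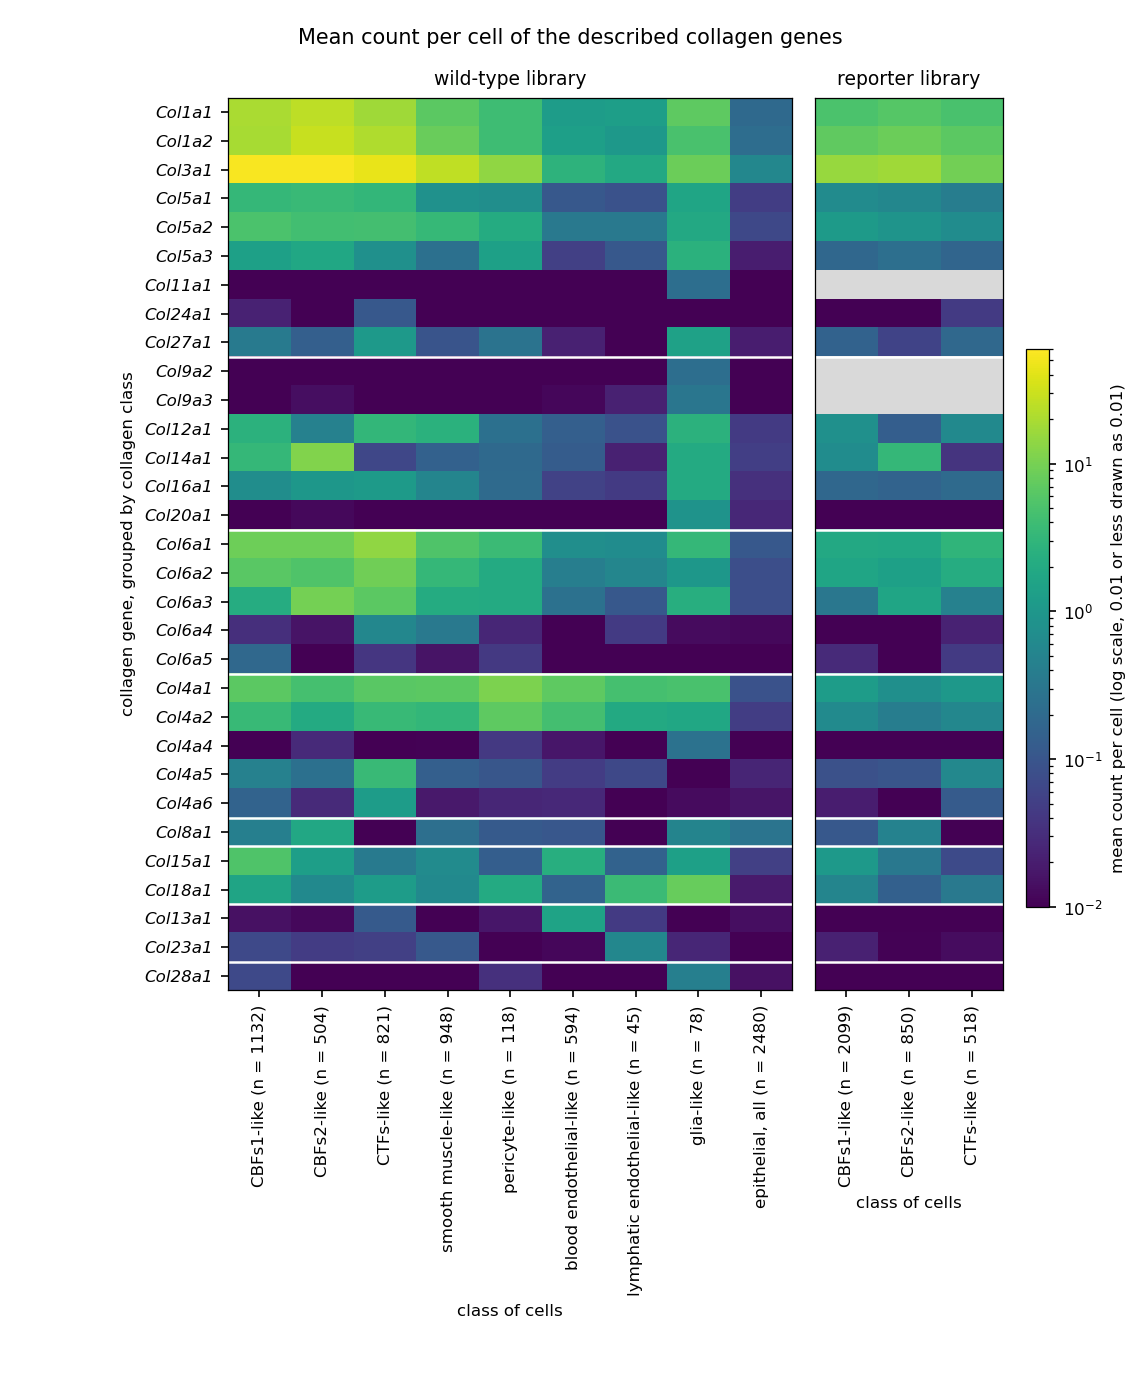
Mean corrected count per cell, on a log colour scale, of the 31 described genes (by collagen class, in blocks) in 9 classes of the wild-type library and 3 of the reporter library, where grey marks a gene that the table does not list. Col3a1 is brightest in fibroblasts, at 54.7 in CBFs1-like cells, while Col13a1 stands out in blood endothelial-like cells (1.54) and Col18a1 in glia-like cells (8).

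The fibril-forming class has 11 members. Col1a1 and Col1a2 code for the chains of type I, the main collagen of most connective tissue. Col1a1 had a mean of 19.6, 25.1 and 17.2 in CBFs1-like, CBFs2-like and CTFs-like cells, against 4.03 in pericyte-like, 6.73 in smooth muscle-like, 7.03 in glia-like, 1.21 in blood endothelial-like and 0.195 in epithelial cells. Col1a2 followed with 19, 28.9 and 21.2 in the same 3 fibroblast types and 8.23 in smooth muscle-like cells. Reporter cells had Col1a1 at 5.14, 6.15 and 4.92 in CBFs1-like, CBFs2-like and CTFs-like cells. Both chains were thus within 2-fold among the fibroblast types of each library.

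Col3a1, the single chain of type III in the fine reticular fibres of the gut wall, had 54.7, 54.3 and 45.3 in CBFs1-like, CBFs2-like and CTFs-like cells, and 26.2 in smooth muscle-like cells. The reporter library had 15.7, 17.5 and 9.36 in these fibroblast types. As a log2 ratio, CTFs-like over CBFs-like cells, this was -0.79 against -0.27 in the wild-type library. Type V collagen sits inside fibrils and limits their width, and its chain genes had much in common across classes (r from 0.939 to 0.967 over 15 classes, on the log2 scale described with Col6a1). Col5a1 and Col5a2 had 3.31 and 5.05 in CBFs1-like cells and fell to 0.111 and 0.342 in blood endothelial-like cells. Col5a3 differed in its level in glia-like cells, where it was highest, 2.55, against 1.42 in pericyte-like cells and 1.4, 1.78 and 0.798 in CBFs1-like, CBFs2-like and CTFs-like cells.

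The rarer fibril-forming genes are better known from cartilage and bone. Col27a1 had 1.09 in CTFs-like cells and less, 0.361 and 0.141, in CBFs1-like and CBFs2-like cells, while glia-like cells had 1.44. Its CTFs-like over CBFs-like log2 ratio was 1.89 in the wild-type library and 0.56 in the reporter library, where its mean in CTFs-like cells was 0.187 beside 0.127 in CBFs-like cells. Col24a1 had 0.111 in CTFs-like against 0.0177 in CBFs-like cells, and 0.0444 against 0.00678 in the reporter library, log2 ratios of 2.64 and 2.71. Col11a1 was above 0 in 8 of 78 glia-like cells (10.3%, 4.53% to 19.2%), with a mean of 0.231, and in 0 of 2480 epithelial cells, which by the limit of 3 counts allows a share of up to 0.121% of cells with a corrected count and does not bound cells that express the gene. The other 2 members, Col2a1 and Col11a2, had their highest means at 0.0128 in glia-like and 0.0251 in goblet-like cells.

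Among the 8 fibril-associated members, Col12a1 and Col14a1 code for collagens on the surface of fibrils, and they divided the fibroblast types in different ways. Col14a1 had 11.5 in CBFs2-like and 3.26 in CBFs1-like cells but 0.0646 in CTFs-like cells. It was above 0 in 93.8% of CBFs2-like (91.4% to 95.8%), 84.1% of CBFs1-like (81.8% to 86.2%) and 2.31% of CTFs-like cells (1.40% to 3.59%), and in 1.94% of epithelial cells (1.43% to 2.56%). The epithelial share was 1.09% (0.710% to 1.59%) without the cells of highest doublet score, and the source of the few counts in CTFs-like cells was not tested. Set over CBFs-like cells as a log2 ratio, the CTFs-like level was -6.49. In the reporter library Col14a1 had 3.23, 0.699 and 0.0367 in CBFs2-like, CBFs1-like and CTFs-like cells, a log2 ratio of -5.28, so the order of the types was the same in each library.

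Col12a1 had 2.69 in CBFs1-like and 3.16 in CTFs-like cells against 0.46 in CBFs2-like cells, and 2.57 in smooth muscle-like and 2.64 in glia-like cells. The reporter library gave 0.781, 0.62 and 0.134 in CBFs1-like, CTFs-like and CBFs2-like cells. CBFs2-like cells thus had the least Col12a1 and the most Col14a1 of the fibroblast types in each library, with log2 ratios of CBFs2-like over CBFs1-like cells of -2.55 and -2.54 for Col12a1 and of 1.82 and 2.21 for Col14a1.

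Col16a1, another fibril-associated chain, varied little among fibroblasts, with 0.703, 0.998 and 1.16 in CBFs1-like, CBFs2-like and CTFs-like cells, and was highest in glia-like cells at 2.06. Col20a1 had 0.859 in glia-like cells and 0.00733 in fibroblasts. It was above 0 in 30.8% of glia-like (20.8% to 42.2%) and 2.58% of epithelial cells (1.99% to 3.28%). Col9a2 and Col9a3, chains of a collagen best known from cartilage, had 0.231 and 0.308 in glia-like cells. Col9a1, the remaining chain of that collagen, had no mean above 0.00198 in any class. Col22a1, a collagen of tissue junctions, had its highest mean in smooth muscle-like cells, 0.0506, from 48 corrected counts.

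The beaded-filament class holds the 6 genes of type VI collagen, which forms a fine mesh around cells. Col6a1 and Col6a2, neighbours that lie in the same direction on chromosome 10 with 85161 bases between them, had their highest means in CTFs-like cells. Col6a1 had 14.2 there, 8.92 and 8.79 in CBFs1-like and CBFs2-like cells, and 5.42, 3.78 and 0.731 in smooth muscle-like, pericyte-like and blood endothelial-like cells. Col6a2 had 9.07, 6.43, 5.43, 3.29, 2.03 and 0.407 in the same order of classes. Over the 15 named classes of the wild-type library their levels had a Pearson r of 0.988, taken here and below on the log2 of the class means, with a class at fewer than 3 counts set to 3 counts. That scale gives weight to classes near 0. Classes of a library are not independent, and r is given as a description. The stretches of DNA from 250 to 126 bases before each RefSeq start are shown because these neighbours moved together, as they did with collagen genes of other chromosomes (Col6a1 with Col5a2 had 0.991). Both lie on the minus strand of GRCm38.p6, at chr10:76726170-76726294 for Col6a1 and chr10:76623756-76623880 for Col6a2. Capitals mark a match to 1 of 3 motifs searched on both strands, which are the box CCAAT, the GC box with letters GGGCGG and the TATA box with letters TATAAA, each printed as its reverse complement where it lies on the opposite strand.
Col6a1: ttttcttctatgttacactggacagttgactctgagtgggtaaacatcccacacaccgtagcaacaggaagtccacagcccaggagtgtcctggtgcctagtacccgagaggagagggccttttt
Col6a2: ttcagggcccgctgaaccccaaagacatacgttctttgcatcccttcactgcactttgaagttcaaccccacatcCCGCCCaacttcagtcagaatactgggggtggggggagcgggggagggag
The window of Col6a2 holds 1 match to GGGCGG and that of Col6a1 holds no match. Bases nearer to the start were not searched, so absence of a match holds for the window only. Of 32851 RefSeq promoter windows of the same length, 13.4% hold GGGCGG, 16.8% hold CCAAT and 6.23% hold TATAAA, and a match describes letters only. Of the 41 members, 33 have a promoter in the RefSeq table.

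Col6a3 codes for the long chain that joins the products of Col6a1 and Col6a2. Over the 15 classes it had an r of 0.965 with Col6a1 and 0.95 with Col6a2, but among the fibroblast types its order was another. It had 9.63 in CBFs2-like and 6.71 in CTFs-like cells against 2.21 in CBFs1-like cells. Its reporter means were 1.68, 0.465 and 0.319 in the same types. The ratio of Col6a3 to Col6a1 was 1.1, 0.472 and 0.248 in CBFs2-like, CTFs-like and CBFs1-like cells, and 0.908, 0.159 and 0.165 in the reporter library. In each library the ratio was thus highest in CBFs2-like cells, while the ratio of Col6a1 to Col6a2 stayed between 1.39 and 1.62 in the wild-type and 1.17 and 1.34 in the reporter fibroblast types.

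Col6a4, Col6a5 and Col6a6 lie in a row on chromosome 9 and code for chains that can take the place of the Col6a3 chain. Col6a4 had 0.564 in CTFs-like, 0.336 in smooth muscle-like, 0.0159 in CBFs2-like and 0.0327 in CBFs1-like cells. It was above 0 in 22% of CTFs-like (19.3% to 25%) and 26.8% of smooth muscle-like cells (24% to 29.7%), against 1.09% of epithelial cells (0.719% to 1.58%). Col6a5 had 0.188 in CBFs1-like, 0.0402 in CTFs-like and 0.00794 in CBFs2-like cells. Enteroendocrine-like cells, with 8 of 87 above 0 (9.20%, 4.05% to 17.3%), had a mean of 0.172, the second highest. Its order was another in the reporter library, with 0.0281 in CBFs1-like, 0.0444 in CTFs-like and 0.0515 in the fibroblasts without a type. Col6a6 had no mean above 0.0179, the value of CBFs2-like cells.

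The basement membrane class has the 6 genes of type IV collagen. Col4a1 and Col4a2 code for the chains of the form present in nearly every basement membrane. In the wild-type library both were at least 1.78 in every typed fibroblast, muscle, vessel and glia class named below. Col4a1 had 10.9 in pericyte-like, 6.89 in blood endothelial-like, 6.76 in smooth muscle-like, 6.75 in CBFs1-like, 6.42 in CTFs-like, 4.88 in glia-like, 4.64 in lymphatic endothelial-like, 4.62 in CBFs2-like and 0.0891 in epithelial cells. Col4a2 had 7.02 in pericyte-like cells, 4.5 in blood endothelium and 1.78 to 3.55 in the other non-epithelial classes named. The genes lie head to head on chromosome 8, where their annotated starts overlap by 22 bases, and over 15 classes they had an r of 0.990. The ratio of Col4a1 to Col4a2 lay between 1.53 in blood endothelial-like and 2.74 in glia-like cells over the fibroblast, muscle, vessel and glia classes. In classes with few counts it ranged more widely, from 1 in immune-like (12 and 12 counts) to 3.4 in enteroendocrine-like cells (17 and 5). For reporter cells it was 1.9 in CBFs1-like and CBFs2-like and 1.85 in CTFs-like cells. The overlap lies at the starts of the genes, while a 3′ kit counts the other end of a transcript. Whether reads were assigned by strand is not stated.

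Col4a5 and Col4a6 code for the chains of another form of type IV collagen, and lie head to head on chromosome X of GRCm38 with 1308 bases between them. Col4a5 spans 141475385 to 141689234 on the plus strand and Col4a6 spans 141165403 to 141474076 on the minus strand. Their upstream DNA, from 250 to 51 bases before each RefSeq start, is shown because both genes were highest in the same class. It lies at chrX:141475169-141475368 on the plus strand for Col4a5 and chrX:141474127-141474326 on the minus strand for Col4a6, with capitals as above.
Col4a5: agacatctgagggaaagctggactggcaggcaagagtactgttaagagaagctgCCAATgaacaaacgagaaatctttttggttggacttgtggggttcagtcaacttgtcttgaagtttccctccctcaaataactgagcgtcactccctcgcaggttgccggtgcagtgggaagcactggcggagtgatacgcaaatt
Col4a6: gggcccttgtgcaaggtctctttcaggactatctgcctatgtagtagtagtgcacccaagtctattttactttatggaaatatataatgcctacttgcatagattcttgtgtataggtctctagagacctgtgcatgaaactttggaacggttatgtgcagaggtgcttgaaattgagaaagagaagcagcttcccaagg
The window of Col4a5 holds 1 CCAAT and that of Col4a6 none of the motifs, again with the bases nearer to the start not searched. Of the 32851 RefSeq windows of 200 bases, 28.4% hold CCAAT, 24.6% hold GGGCGG and 9.14% hold TATAAA.

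Col4a5 had 3.62 in CTFs-like cells against 0.453 and 0.25 in CBFs1-like and CBFs2-like cells, and 0.14, 0.102 and 0.0471 in smooth muscle-like, pericyte-like and blood endothelial-like cells. It was above 0 in 83.1% of CTFs-like (80.3% to 85.6%), 30.7% of CBFs1-like (28% to 33.4%) and 1.37% of epithelial cells (0.951% to 1.91%). In glia-like cells it was listed at 0 in all 78, which by the same limit allows up to 3.85% of cells with a corrected count. Col4a6 had 1.22 in CTFs-like cells, 0.161 and 0.0278 in CBFs1-like and CBFs2-like cells, and no mean above 0.0269 in the muscle, vessel and glia classes. Both genes thus had their highest level in CTFs-like cells, with log2 ratios over CBFs-like cells of 3.21 and 3.35. The reporter library gave the same direction. There Col4a5 had 0.571 in CTFs-like cells beside 0.0892 in CBFs-like cells (log2 ratio 2.68), and Col4a6 had 0.12 and 0.0163 (log2 ratio 2.88). The ratio of Col4a5 to Col4a1 was 0.564 in CTFs-like and 0.0671 in CBFs1-like cells of the wild-type library, and 0.545 and 0.0693 in the reporter library. For CBFs2-like cells it was 0.0541 and 0.128, so the order of the CBFs types differed between the libraries. Over the 15 classes the r of Col4a5 and Col4a6 was 0.824.

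Col4a3 and Col4a4, the remaining type IV genes, lie head to head on chromosome 1 with 71 bases between them. Col4a4 had 0.269 in glia-like and 0.0424 in pericyte-like cells, and Col4a3 had its highest mean of the named classes, 0.0404 from 24 corrected counts, in blood endothelial-like cells. The unnamed cluster led by Notch3 had more Col4a3, 0.101, and also more Col4a1 (11.9) and Col4a2 (7.55) than any named class.

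Col8a1 codes for a chain of type VIII collagen, a short-chain collagen that forms lattices. Among fibroblasts it had 1.86, 0.429 and 0.00974 in CBFs2-like, CBFs1-like and CTFs-like cells, and its log2 ratio, CTFs-like over CBFs-like, was -6.48. The reporter library had 0.481 and 0.11 in CBFs2-like and CBFs1-like cells and listed the gene at 0 in all 518 CTFs-like cells, at least 37.5-fold lower than CBFs-like cells against a floor of 3 counts over the class. Col8a2, its partner chain, reached 0.0536 in CBFs2-like cells.

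In the epithelium Col8a1 stood higher beside its fibroblast level than the other members with a fibroblast mean of at least 0.1, a result singled out after its values were seen. Its epithelial mean of 0.289 was 49.6% of the fibroblast mean, while for Col1a1, Col3a1 and Col4a1 that share was 0.979%, 1.09% and 1.44%, and the highest of the others was 7.53% for Col6a5. The level lay mostly in the secretory cells. Goblet-like cells had a mean of 0.961 with 226 of 638 cells above 0 (35.4%, 31.7% to 39.3%), and enteroendocrine-like cells had 0.69 with 38 of 87 cells (43.7%, 33.1% to 54.7%). Absorptive-like cells had 0.0147 with 10 of 1154 cells (0.867%, 0.416% to 1.59%), at median genes of 3290, 3720 and 3135 in these classes. Without the 5% of cells with the highest doublet scores, a choice made after seeing the data, the means of goblet-like and enteroendocrine-like cells were 0.974 and 0.693. The same step took Col3a1 from 0.608 to 0.334 in goblet-like cells and from 1.01 to 1.12 in enteroendocrine-like cells. The scores come from a run whose doublet calls were too few to have worked, so this step need not remove doublets. The source of the epithelial counts was not tested.

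The multiplexins Col15a1 and Col18a1 code for collagens that carry sugar side chains and sit at basement membranes. Col15a1 had 5.45, 1.32 and 0.363 in CBFs1-like, CBFs2-like and CTFs-like cells, and 2.32 in blood endothelial-like against 0.136 in pericyte-like cells. It was above 0 in 96.4% of CBFs1-like (95.1% to 97.4%), 65.3% of blood endothelial-like (61.3% to 69.1%) and 2.90% of epithelial cells (2.28% to 3.64%). Reporter means were 1.09, 0.328 and 0.0714 in CBFs1-like, CBFs2-like and CTFs-like cells, the same order. Col18a1, whose product releases endostatin, had 8 in glia-like, 3.73 in lymphatic endothelial-like, 2.07 in pericyte-like, 1.59 in CBFs1-like, 1.22 in CTFs-like, 0.611 in CBFs2-like and 0.162 in blood endothelial-like cells. Col15a1 had 0.156 in lymphatic endothelial-like cells. It was thus higher in blood than in lymphatic endothelium, while Col18a1 was higher in lymphatic than in blood endothelium. Col18a1 was above 0 in 98.7% of glia-like (93.1% to 100%) and 1.61% of epithelial cells (1.15% to 2.19%).

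The transmembrane collagens stay anchored in the cell surface. Col13a1 had 1.54 in blood endothelial-like cells, 0.116 in CTFs-like cells and no mean above 0.0444 in the other muscle, vessel, glia and fibroblast classes named. The unnamed cluster led by Notch3 and Ndufa4l2, 99 cells, had 1.65, and whether these cells are mixtures of cell types was not tested. It was above 0 in 52.4% of blood endothelial-like (48.3% to 56.4%) and 0.968% of epithelial cells (0.621% to 1.44%). Col23a1 had 0.556 in lymphatic endothelial-like cells, from 25 corrected counts in 45 cells, and 0.113 in smooth muscle-like cells. Among the named classes of 40 or more cells, Col17a1, a collagen of epithelial anchoring plaques, and Col25a1 each had their highest mean, 0.0244, in the 41 immune-like cells. Col7a1, the anchoring fibril collagen, had no mean above 0.0047 in a named class, that of goblet-like cells. Col28a1, known from peripheral nerve, had 0.423 in glia-like cells, and 0.0671 and 0.00595 in CBFs1-like and CBFs2-like cells.

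To compare crypt top with crypt bottom fibroblasts, the CTFs-like mean was divided by the mean of all CBFs-like cells, and a gene was counted as higher or lower past 2-fold. Genes entered with a mean of at least 0.02 per cell (both classes weighted equally) and a sum of at least 20. In the wild-type library 26 collagen genes entered and 6 were higher in CTFs-like cells, beside 5.86% of all 11445 genes, and 5 were lower, beside 9.11%. The 6 were Col4a5, Col4a6, Col6a4, Col13a1, Col24a1 and Col27a1, and the 5 were Col6a5, Col8a1, Col14a1, Col15a1 and Col28a1. Col6a4 had 0.564 against 0.0275 (log2 ratio 4.36), Col13a1 had 0.116 against 0.0141 (3.04), and Col28a1 was listed at 0 in CTFs-like cells, at least 13.2-fold lower. The median log2 ratio was 0.01 over the collagen genes and -0.08 over all genes. In the reporter library 22 entered, 4 were higher beside 10.1% of 9294 genes, and 3 were lower beside 6.67%. The 4 were Col4a5, Col4a6, Col6a5 and Col24a1 and the 3 were Col8a1, Col14a1 and Col15a1, with a median of -0.11 over collagen genes and 0.27 over all genes.

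Within the crypt bottom, 25 collagen genes entered the comparison of CBFs2-like with CBFs1-like cells of the wild-type library. CBFs2-like cells were higher for 4, Col6a3, Col8a1, Col8a2 and Col14a1, beside 8.27% of 11530 genes, and lower for 8, beside 4.74%. The 8 were Col4a6, Col6a4, Col6a5, Col12a1, Col15a1, Col18a1, Col27a1 and Col28a1. The 8 became 3 when cells were thinned and 4 with the filter at a mean of 0.1. The log2 ratio of Col6a4 was -1.04, from 8 and 37 corrected counts, and passed 2-fold in only some of the alternatives tried. The median was -0.24 over collagen genes and 0.09 over all genes. From the reporter library 19 entered, and 3 were higher beside 5.53% of 9063 genes and 4 lower beside 5.61%, with medians of -0.21 and -0.06. The 3 were Col6a3, Col8a1 and Col14a1 and the 4 were Col12a1, Col15a1, Col18a1 and Col27a1. For Col27a1 the log2 ratios of -1.36 and -1.43 became -0.90 and -0.97 when cells were thinned to 1000 corrected counts.

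Side by side, 22 collagen genes entered the CTFs-like over CBFs-like comparison of each library, and 3 were higher in both, 3 lower in both and 14 within 2-fold in both. Of the 8991 genes of any kind compared in both, 3.76% were higher in both, 4.46% lower in both and 79.9% within 2-fold in both. The exceptions were Col27a1, higher only in the wild-type library, and Col6a5, with log2 ratios of -1.72 and 1.08. In the comparison of the CBFs types 19 genes entered in each library, with 3 higher in both, 4 lower in both and 12 within 2-fold in both, beside 3.82%, 2.72% and 86.3% of 8799 genes. The clusters behind these classes are not the same in make-up, since 776 fibroblasts of the reporter library had no type, and this bears on CTFs-like cells as described next.

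**Figure D3:**
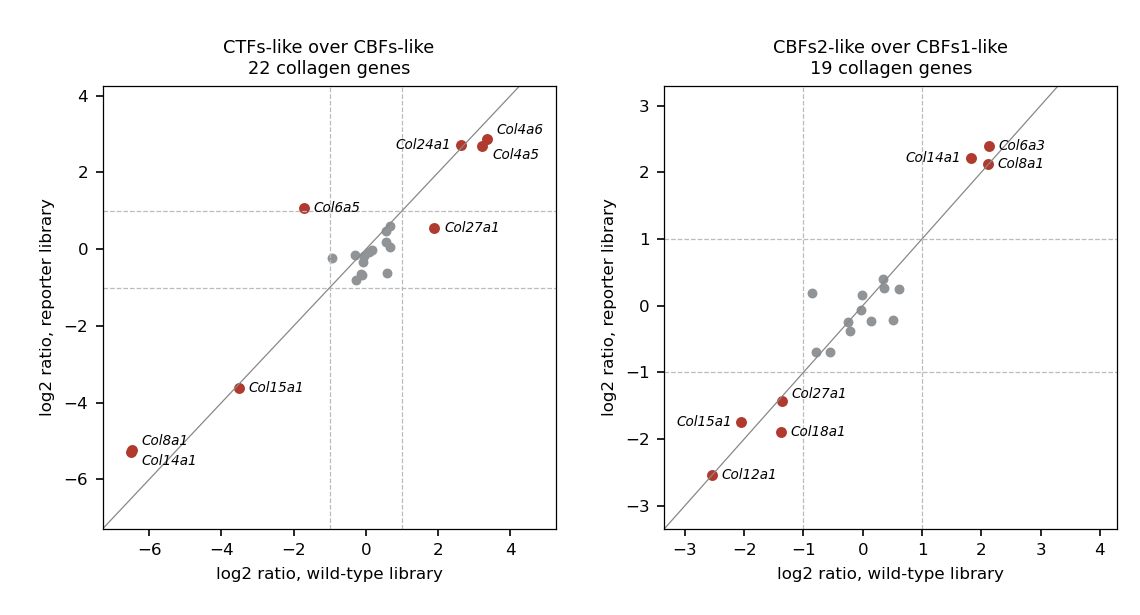
Each point is a collagen gene, placed by its log2 ratio of class means in the wild-type library (horizontal) and in the reporter library (vertical), with dashed lines at 2-fold and red points past 2-fold in at least 1 library. Genes near the diagonal had like ratios, from -6.49 and -5.28 for Col14a1 to 3.35 and 2.88 for Col4a6, and Col6a5 lies off it at -1.72 and 1.08.

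At a finer clustering resolution of 0.8 the CTFs-like cells of each library formed 2 clusters, of which 1 was marked by Il1rl1, the receptor of interleukin 33. These clusters were chosen after their values were seen. In the wild-type library the cluster held 216 cells with a mean Il1rl1 of 0.662 against 0.0137 in the other 584 cells, and in the reporter library 123 cells with 0.447 against 0.0115 in 521. All 216 wild-type cells had been CTFs-like before, while 121 of the 123 reporter cells had been among the fibroblasts without a type. Collagen made up 2.52% of the corrected counts of the Il1rl1 cluster (2.50% to 2.54%) and 1.41% of the other (1.40% to 1.42%), and 1.34% and 1.00% in the reporter library. Median genes were 2928 and 2268 in the wild-type and 1814 and 1432 in the reporter library.

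In the wild-type library 10 of 25 collagen genes were higher in the Il1rl1 cluster, beside 11.7% of 10726 genes, and 1 was lower, beside 5.17%. In the reporter library 5 of 22 were higher, beside 11.8% of 8320 genes, and 1 was lower, beside 5.54%. Of the 10, 5 are genes of type VI collagen, and of the 5 in the reporter library 3 are, an order of description chosen after the calls were seen. Col6a4 had 1.84 in the Il1rl1 cluster against 0.0908 in the other cluster (log2 ratio 4.34), and 0.187 against 0.023 in the reporter library (3.02). Col6a3 had 14.6 against 3.82 (1.93), and 1.32 against 0.464 in the reporter library (1.5). Col6a5 had 0.0926 against 0.0205 (2.17), and 0.114 against 0.0441 in the reporter library (1.37). Col6a1 had 26.6 against 9.8 in the wild-type library (1.44) but 4.07 against 2.91 in the reporter library (0.48), so the main pair of type VI chains passed 2-fold in the wild-type library only.

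Outside type VI, Col18a1 had 2.69 against 0.702 (1.94), and 1.12 against 0.336 in the reporter library (1.74). Col13a1 had 0.315 against 0.036 in the wild-type library (3.13), so most of the CTFs-like Col13a1 lay in this cluster. Of the 22 genes compared in both libraries 4 were higher in both, Col6a3, Col6a4, Col6a5 and Col18a1, and 11 were within 2-fold in both, beside 4.42% and 77.9% of 8062 genes. The genes lower in the Il1rl1 cluster were Col22a1 in the wild-type library, from 3 and 21 corrected counts, and Col24a1 in the reporter library, from 2 and 23. The median log2 ratio was 0.95 over collagen genes and 0.23 over all genes in the wild-type library, and 0.59 and 0.24 in the reporter library. The 10 listed smooth muscle markers summed to 3.86 per cell in the Il1rl1 cluster, with 1 at 0 and Acta2 the most abundant, and to 25.9 in the other cluster with none at 0. The sums of the reporter library were 2.63 and 11.4. In the wild-type library fibroblast markers summed to 69.2 and 102, epithelial markers to 3.63 and 6.88 and immune markers to 0.472 and 0.0736, at median mitochondrial shares of 7.83% and 9.93%. The part of these markers and of the depth in the result was not tested.

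**Figure D4:**
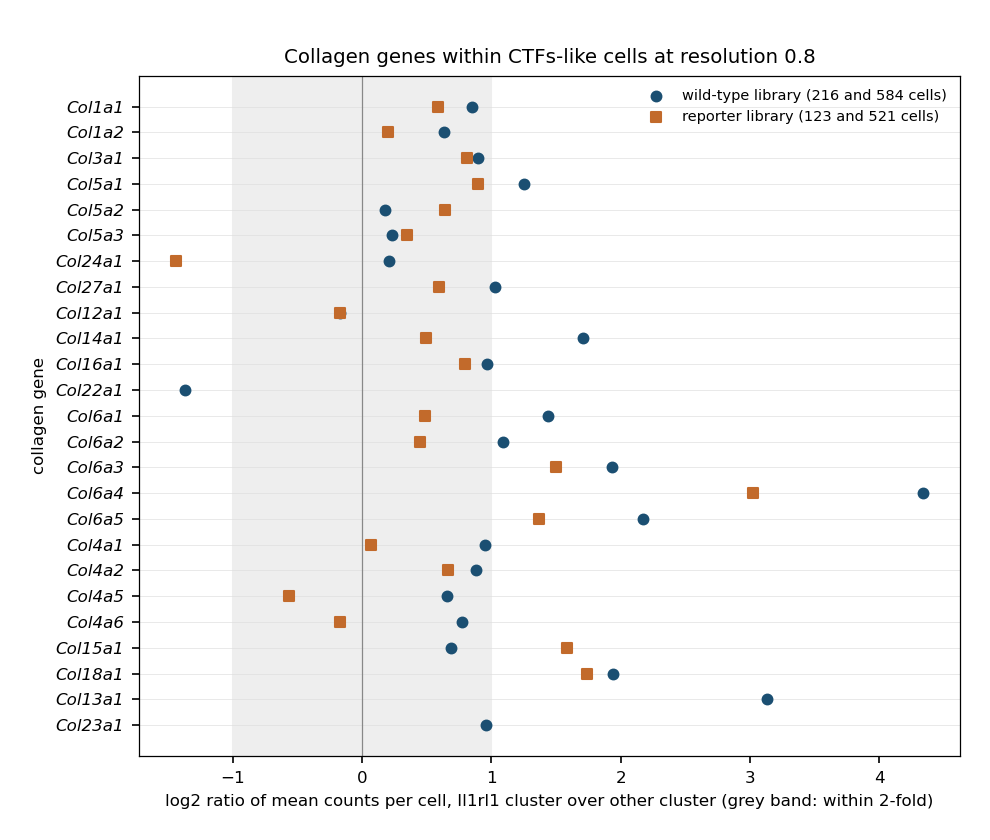
Log2 ratio of the mean corrected counts per cell in the Il1rl1 cluster over the other cluster of CTFs-like cells, for each collagen gene compared, with circles for the wild-type and squares for the reporter library. Col6a4 lies farthest to the right at 4.34 and 3.02, and the grey band holds ratios within 2-fold.

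The other classes were compared with all 2457 typed fibroblasts of the wild-type library, to ask which members are made outside fibroblasts. The 10 listed fibroblast markers are given with each result, since they were above 0 in every class, whether made there or carried over. They summed to 282 per cell in fibroblasts and to 4.49 in epithelial cells, 1.59% of that level, with Gsn the most abundant in each. Their source and their part in the results were not tested. Collagen levels in the same epithelial cells were 1.46% of the fibroblast level. Among the fibroblast types the marker sum itself varied, at 117%, 172% and 31.9% of the fibroblast level in CBFs1-like, CBFs2-like and CTFs-like cells. The collagen levels of these types were 97.7%, 111% and 96.6% of the fibroblast level. A marker level well below the collagen level thus also occurred within fibroblasts, in CTFs-like cells.

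Smooth muscle-like cells had 48.0% of the collagen level of fibroblasts and 17.7% of the fibroblast marker level (50.0 per cell, most abundant Dcn at 14.7), beside smooth muscle markers at 258 per cell. Of 26 collagen genes 1 was higher, Col22a1 (0.0506 against 0.0142, log2 ratio 1.83), beside 6.49% of 11419 genes, and 16 were lower, beside 11.5%. Without the 62 cells of a second smooth muscle-like cluster, an alternative added after seeing the data, 2 were higher, the other being Col23a1. Col14a1 had 0.148 against 3.89 (log2 ratio -4.72) and Col5a1 0.813 against 3.33 (-2.04). Within 2-fold were Col4a1, with 6.76 against 6.2, Col12a1, with 2.57 against 2.39, and Col6a4, with 0.336 against 0.207. The median was -1.29 over collagen genes and -0.09 over all genes.

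Pericyte-like cells, which surround small vessels, had 37.2% of the fibroblast collagen level and 9.94% of the fibroblast marker level (28 per cell, most abundant Dcn at 11.3). They also held pericyte markers at 62.5 per cell (most abundant Rgs5) and smooth muscle markers at 69.6 (most abundant Acta2). Of 27 collagen genes 2 were higher, beside 11% of 11436 genes, and 21 were lower, beside 22.9%. The 2 were Col4a2, 7.02 against 3.22 (log2 ratio 1.12), and Col4a4, 0.0424 from 5 corrected counts against 0.0106 (2.00). Col18a1 at 2.07 against 1.27 and Col5a3 at 1.42 against 1.28 were within 2-fold, while Col15a1 had 0.136 against 2.9 (-4.42). The unnamed cluster led by Notch3, which is not counted here, had Col15a1 at 2.09. The median was -1.80 over collagen genes and -0.27 over all genes.

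Blood endothelial-like cells had 15.5% of the fibroblast collagen level and 4.84% of the marker level (13.7 per cell, most abundant Gsn at 5.39), beside endothelial markers at 81.9 per cell. Of 26 collagen genes 2 were higher, beside 12.7% of 11651 genes, and 21 were lower, beside 21.1%. The 2 were Col13a1, 1.54 against 0.048 (log2 ratio 5.00), and Col4a3, 0.0404 against 0.00326 (3.63), of which Col4a3 was no longer compared once cells with 10% or more mitochondrial counts were left out. Within 2-fold were Col4a1 at 6.89 against 6.2, Col4a2 at 4.5 against 3.22 and Col15a1 at 2.32 against 2.9. The median was -4.04 over collagen genes and -0.22 over all genes.

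The blood endothelial-like class held 2 clusters, 98 cells marked by Selp, a surface protein of venules (mean 14.6), and 496 cells with Kdr at 6.71 against 0.694 in the Selp cluster. This comparison was chosen after the clusters were seen. Collagen made up 0.0937% of the corrected counts in the Selp cluster (0.0875% to 0.1%) and 0.33% in the other (0.325% to 0.336%). Of 20 collagen genes 0 were higher in the Selp cluster, beside 15.6% of 9869 genes, and 8 were lower, beside 6.73%. Col4a1 had 1.22 against 8.01 (log2 ratio -2.71), and Col4a2 had 0.582 against 5.27 (-3.18). Col13a1 had 0.0612 against 1.83 (-4.90), and Col15a1 had 1.03 against 2.57 (-1.32). The endothelial collagens described above thus lay mainly in the cluster with Kdr. In the Selp cluster and the other, fibroblast markers summed to 12.5 and 13.9 per cell, pericyte markers to 1.38 and 2.68, and smooth muscle markers to 5.16 and 2.39. Median genes were 2677 and 2002.5 and median mitochondrial shares 5.80% and 9.18%, and the part of these differences was not tested. The median log2 ratio was -0.91 over collagen genes and 0.18 over all genes.

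Glia-like cells had 40.4% of the fibroblast collagen level and 13.2% of the marker level, 37.3 per cell, of which Gsn gave 27.4. All 10 glia markers were above 0 and summed to 44.2 per cell, with Kcna1 the most abundant. Of 29 collagen genes 7 were higher, beside 13.2% of 11477 genes, and 14 were lower, beside 20.7%. The 7 were Col4a4, Col9a3, Col16a1, Col18a1, Col20a1, Col27a1 and Col28a1. Col20a1 had the largest log2 ratio, 6.87 (0.859 against 0.00733). Col9a3 followed at 5.24 (0.308 against 0.00814) and Col4a4 at 4.67 (0.269 against 0.0106). Col28a1 was at 3.72 (0.423 against 0.0322) and Col18a1 at 2.66 (8 against 1.27). These levels rest on 78 cells, and with cells thinned to 1000 corrected counts 4 were higher, Col16a1, Col18a1, Col27a1 and, newly, Col5a3, and 9 were lower. Col4a4, Col9a3, Col20a1 and Col28a1 then fell below the filter, at log2 ratios of 5.20, 4.39, 7.56 and 2.98. Col5a3 was just within 2-fold, with 2.55 against 1.28. Among the lower ones Col3a1 had 8.59 against 51.5 (-2.58) and Col6a2 had 1 against 7.1 (-2.83), and Col4a5, listed at 0, was at least 38.2-fold lower. The median was -0.91 over collagen genes and -0.11 over all genes.

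**Figure D5:**
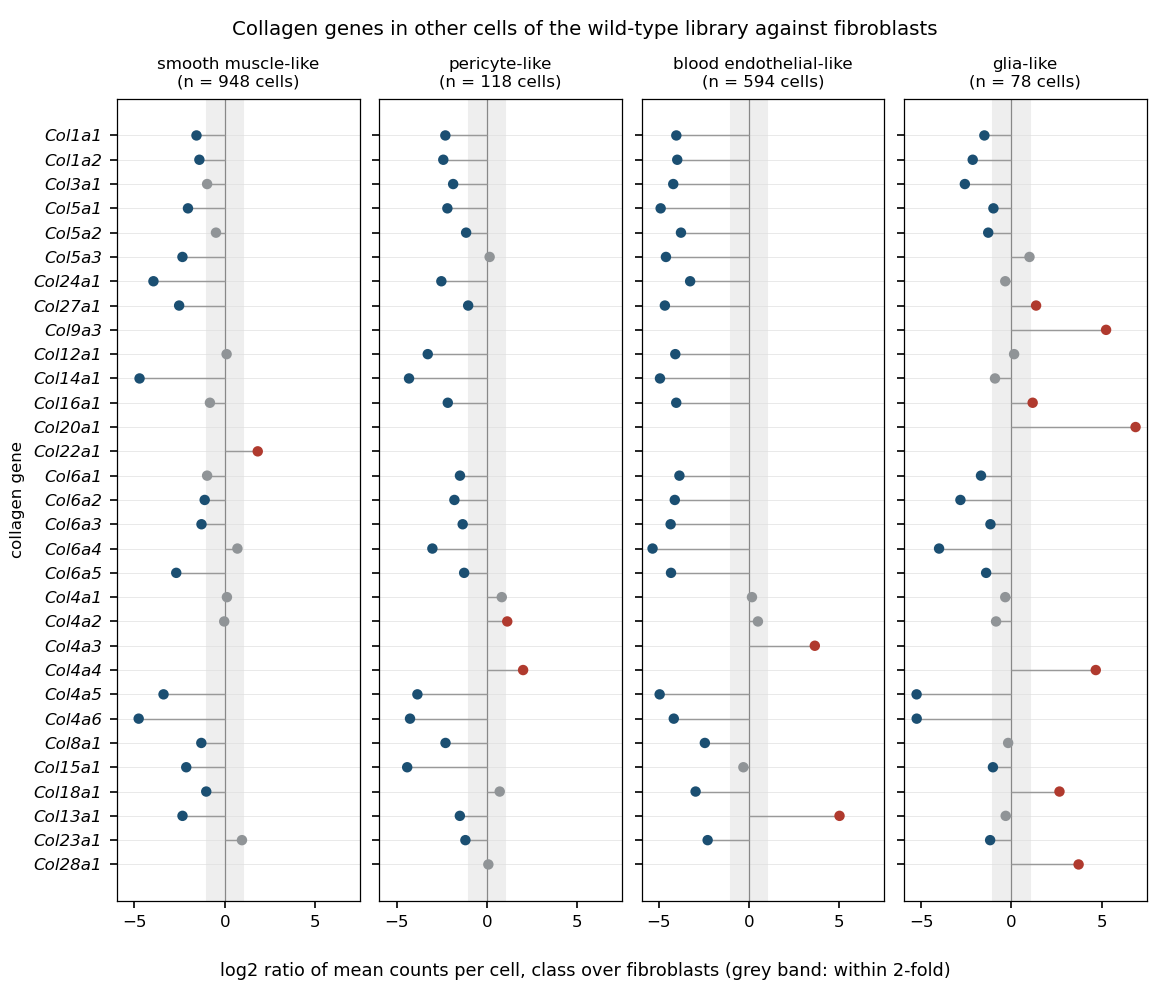
Log2 ratio of the mean corrected count per cell of each collagen gene in smooth muscle-like, pericyte-like, blood endothelial-like and glia-like cells over fibroblasts of the wild-type library, in red where more than 2-fold higher, blue where more than 2-fold lower and grey within 2-fold. Red points reach 5.00 for Col13a1 in blood endothelial-like and 6.87 for Col20a1 in glia-like cells, while Col4a1 is grey in all 4 panels.

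The 53 listed genes that process or bind collagens fall into 4 lists, and their counts past 2-fold are read beside the shares of all genes given above for the same comparisons. The 20 genes of chain hydroxylation and folding act inside the cell. Serpinh1, the chaperone of the triple helix, had 14.1, 14.3 and 13.8 in CBFs1-like, CBFs2-like and CTFs-like cells, 8.43 in smooth muscle-like, 4.82 in blood endothelial-like and 0.128 in epithelial cells. Ppib, an isomerase of wider use, had 7.79, 6.07 and 6.14 in the fibroblast types and 4.3 in epithelial cells. P4hb had 2.28, 2.48 and 2.14 in those types, and the lysyl hydroxylase Plod2 had 1.49, 1.82 and 1.57. Serpinh1 was thus far lower in the epithelium than in fibroblasts, as most collagen genes were, and Ppib was less so. In CTFs-like over CBFs-like cells 1 of 20 was higher and 2 lower in the wild-type library, and 2 of 18 higher and 0 lower in the reporter library, with P3h2 higher in each (log2 ratios 2.67 and 3.30).

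The 10 genes of propeptide removal trim the ends of newly secreted chains, and 6 entered the CTFs-like over CBFs-like comparison of the wild-type library with 1 higher and 4 lower. Adamts2, a procollagen peptidase, had 1.92, 1.84 and 0.22 in CBFs1-like, CBFs2-like and CTFs-like cells, and 0.562, 0.393 and 0.149 in the reporter library. Pcolce2, an enhancer of propeptide removal, had 5.61 in CBFs2-like, 0.0848 in CBFs1-like and 0.00853 in CTFs-like cells, while its relative Pcolce had 7.04, 5.52 and 5.03. Bmp1, another peptidase, had 1.35, 0.961 and 0.496. In the wild-type library CTFs-like cells had the lowest mean of all 4 among the fibroblast types, but Pcolce in the reporter library was 2.93 in CTFs-like cells and lower, 2.69, in CBFs1-like cells. Of the reporter library 4 entered, with 0 higher and 2 lower, Adamts2 and Pcolce2.

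Of the 11 genes of crosslinking and fibril organisation, 1 of 10 was higher (Loxl4) and 1 lower (Loxl1) in CTFs-like over CBFs-like cells of the wild-type library, and 1 of 9 higher (Aspn) and 1 lower (Loxl1) in the reporter library. Sparc, a collagen-binding protein, had 34.3, 37.9 and 22.6 in CBFs1-like, CBFs2-like and CTFs-like cells and 77.9 in glia-like cells. Bgn had 27.2, 18.1 and 14 in the fibroblast types, Fn1 had 12.4, 10.3 and 12.2, and Aspn had 5.49, 6.15 and 7.86. Fn1, on which many fibrils assemble, had 0.385 in glia-like cells, so glia-like cells combined high Sparc with little Fn1.

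Of the 12 collagen receptors, 9 entered the wild-type comparison of CTFs-like with CBFs-like cells, with 1 higher, the integrin Itga1 (log2 ratio 2.20), and 3 lower. Of 8 in the reporter library 1 was higher, again Itga1 (2.11), and 3 were lower. Itgb1, the partner chain of the collagen-binding integrins, had 3.92, 3.05 and 4.86 in CBFs1-like, CBFs2-like and CTFs-like cells and 9.55 in smooth muscle-like cells. The receptor kinase Ddr2 had 1.72, 1.86 and 0.636, Antxr1 had 1.02, 1.71 and 1.01, and Mrc2, which takes up collagen, had 0.59, 1.32 and 0.222 in the fibroblast types. CTFs-like cells thus had the lowest Ddr2 and Mrc2 of the fibroblast types.

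In the comparison of CBFs2-like with CBFs1-like cells, the lists gave 3 higher and 1 lower of 20 for folding, 1 and 1 of 6 for propeptide removal, 0 and 0 of 9 for crosslinking, and 1 and 0 of 9 for receptors in the wild-type library. The reporter library gave 1 and 0 of 18, 1 and 0 of 4, 0 and 2 of 9, and 1 and 1 of 8. Over fibroblasts, smooth muscle-like cells had 1 higher and 6 lower of 20 folding genes, pericyte-like cells 1 and 14, blood endothelial-like cells 0 and 13, and glia-like cells 3 and 6. For propeptide removal the same classes had 0 and 6 of 6, 0 and 4 of 5, 1 and 6 of 7, and 0 and 5 of 6. For crosslinking they had 0 and 3 of 10, 0 and 6 of 9, 0 and 9 of 10, and 1 and 6 of 9. For receptors they had 2 and 3 of 9, 2 and 5 of 10, 1 and 6 of 9, and 3 and 3 of 9. Most of the listed genes past 2-fold were thus lower outside fibroblasts, as were most collagen genes and most of all genes past 2-fold by the shares given above, while the receptors were near balance in smooth muscle-like and glia-like cells.

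Across the 15 named classes of the wild-type library, the abundant fibril-forming genes were among the most alike. Col1a1 with Col1a2 had 0.995 and Col1a2 with Col3a1 0.994, although these genes lie on 3 chromosomes. Col3a1 and Col5a2, which lie tail to tail on chromosome 1 with 24614 bases between them, had 0.989. Pairs of rare genes are not described, since such genes lie at the limit of 3 counts in many classes. The part of that limit in their r was not tested. The classes share a library and are not independent, so these values describe the log2 class means and are given without a test.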

How the data were processed

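The authors aligned reads to mm10 and counted molecules with Cell Ranger (its version is not given in the submitters' processing notes), and filtered and normalized cells in Seurat 3.1 under R 3.6.2. The score values as deposited are whole numbers that SCTransform corrected to a common depth, read so from the values, and the natural log values deposited beside them are ln(1 + score). The plan had assumed raw counts, and since these are not, means and ratios are given with no count model and no test.

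The deposited natural log values were clustered per library in Seurat 5.3.0 (R 4.3.3, Matrix 1.6.5), from 3000 variable features less the collagen genes (2970 and 2985 used), with 30 principal components and resolution 0.45 (wild-type) or 0.3 (reporter). Clusters were named from 22 marker lists, with a pseudocount of 0.01 in the marker folds, and classes under 40 cells are not described. Other steps used Python 3.11.15, numpy 2.4.6, scipy 1.17.1, pandas 2.3.3, scanpy 1.11.5 and matplotlib 3.10.9, and the ratio step was tested on simulated data. All deposited cells were kept. Scrublet marked 7 wild-type (0.0934%) and 5 reporter cells (0.113%), too few to have worked, so doublets remain, and the 380 and 237 cells of highest score were left out as an alternative. The scores of such a run need not mark doublets, which holds wherever these cells are left out. Mitochondrial genes gave a median of 9.07% (highest 32.1%) and 2.33% (9.94%) of corrected counts.

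A ratio of class means was called past 2-fold for genes with a mean of at least 0.02 and a sum of at least 20, and a class at 0 was set to 3 counts. There were 8 planned comparisons. Described members have a mean of at least 0.1 in a named class of 40 or more cells, the other members are given by their highest class, and up to 4 genes of each of 4 pathway lists by their highest fibroblast mean. Other named genes were chosen after their values were seen. Members and lists were chosen with earlier results of these data known. Alternatives changed the measure, resolution, components, variable features, doublets, mitochondrial limit (10%), depth (1000 corrected counts), filter and the weighting of CBFs-like cells. Gene positions are from the GENCODE annotation of GRCm38 and promoters from RefSeq, trimmed to bases outside exons. No difference between the libraries was tested.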

Additional observations from a re-analysis of the deposited data

Results flagged for a closer look

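Col6a5, a chain gene of type VI collagen, went in opposite directions in the 2 libraries. The log2 ratio of its mean in CTFs-like over CBFs-like cells was -1.72 in the wild-type library, from 33 and 217 corrected counts, and 1.08 in the reporter library, from 23 and 62. The difference was not tested, since each group is 1 library. The wild-type mean was 0.188 in CBFs1-like and 0.0402 in CTFs-like cells, and the reporter means were 0.0281 and 0.0444. Fibroblasts without a type, which in the reporter library hold nearly all cells of the Il1rl1 cluster, had 0.0515 there. At a resolution of 0.8 Col6a5 was highest in a CBFs1-like cluster with Adamdec1 and Kcnk2 among its leading genes in the wild-type library (0.3), and in the reporter library such a cluster had 0.106 and the Il1rl1 cluster 0.114, while the other CBFs1-like clusters there had no mean above 0.0180. The reporter ratio was 0.99 without the cells of highest doublet score and 0.70 with the fibroblasts without a type counted as CBFs1-like, both alternatives chosen after seeing the data.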

How the results depend on the processing

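Results were computed again under those of 17 changes that apply to them, 1 at a time, of which 5 were chosen after seeing the data: the 5% of cells with the highest doublet scores left out, the reporter fibroblasts without a type counted as CBFs1-like, the reporter cluster of stress genes left out, the second smooth muscle-like cluster left out, and the wild-type fibroblasts without a type counted as CBFs2-like. Of 194 counts computed this way 173 were within 1.5 times the reported count, but in 69 of 194 the genes called were not all the same, and only 5 of 16 counts stayed within 1.5 times in every alternative. Of 121 member ratios past 2-fold 101 stayed past it in every alternative, and none reversed. Of the 20 that did not, 16 were lower than fibroblasts in another class, such as Col18a1 in smooth muscle-like (-0.94 without the mitochondrial cells), Col27a1 in pericyte-like (-0.93 as pooled shares) and Col5a1 in glia-like cells (-0.88 as pooled shares). The other 4 were Col6a4 between the CBFs types of the wild-type library (-0.99, -0.68 and -0.42), Col27a1 between them in both libraries when thinned (-0.90 and -0.97), and Col6a5 in the reporter library (0.99 and 0.70).

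With the filter at a mean of 0.1, fewer genes entered, and the wild-type counts became 3 in place of 5 lower in CTFs-like cells, 4 in place of 8 lower in CBFs2-like cells, 0 in place of 1 higher in smooth muscle-like cells, and 1 in place of 2 higher in pericyte-like and in blood endothelial-like cells. In the reporter library 1 in place of 4 was higher in CTFs-like cells. With no filter other than a sum above 0, more genes entered, and 9 were lower in CTFs-like, 10 higher in CBFs2-like and 4 higher in blood endothelial-like cells of the wild-type library, and 7 higher and 10 lower in CBFs2-like cells of the reporter library. Counts under a change, here and elsewhere, are given without the share of all genes under that change. They describe how the reported counts moved and are not read as results about collagen genes.

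With cells thinned to 1000 corrected counts, fewer genes passed the filter, and 3 were lower in CBFs2-like, 0 higher in smooth muscle-like, 1 higher in blood endothelial-like, and 4 higher and 9 lower in glia-like cells of the wild-type library, and 2 higher in CTFs-like cells of the reporter library. Thinning also moved the median log2 ratio of all genes, to 0.22 from -0.11 in glia-like and to 0.06 from -0.27 in pericyte-like cells. In the glia-like class Col4a4, Col9a3, Col20a1 and Col28a1 fell below the filter after thinning, with ratios still past 2-fold, and Col5a3 was gained. Higher in smooth muscle-like cells were 2 with 15 principal components, 2 without cells of 10% or more mitochondrial counts and 2 without the second cluster, and higher in blood endothelial-like cells 1 without the mitochondrial cells. The cause was not tested.

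The collagen share of wild-type fibroblasts, 1.72%, was 1.71% as a mean over cells, 1.83% without cells of 10% or more mitochondrial counts and 1.73% without the highest doublet scores. The share of reporter fibroblasts, 1.29%, was 1.30% as a mean over cells, 1.24% at resolution 0.45, 1.25% at 0.8, 1.24% with 15 principal components, 1.24% with collagen genes left in and 1.31% when thinned. The epithelial share of 0.0225% was between 0.0140% and 0.0260%, lowest without the highest doublet scores. Of 117 shares of classes computed under a change, 69 lay within the interval of the reported share and 48 outside it.

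No paired analysis was possible because each group is 1 library and no result comes from a test. Depth sequenced cannot be recovered from corrected counts, so a value above 0 need not be a molecule of that cell. Members with low means, such as Col4a3, Col8a2 and Col22a1, rest on 24 to 48 corrected counts in their highest class. The glia-like, pericyte-like and lymphatic endothelial-like classes rest on 78, 118 and 45 cells of 1 library.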
